A study of Mus musculus with 51 samples.

Results

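The 10 genes described here, Pou5f1, Nanog, Klf2, Klf4, Zfp42, Esrrb, Tbx3, Dppa3, Tdgf1 and Lin28a, belong to the pluripotency network of mouse embryonic stem cells (ESCs), and they were examined in cells that had left that state for the astroglial lineage. They are 10 of the 22359 protein-coding genes of the mm9 annotation. For each gene, every ChIP-seq peak that overlapped its gene body plus 10 kb on each side was taken, which gave 202 of the 803595 peaks in the 6 deposited lists. The lists hold H3K27ac and H3K4me1 peaks at 3 stages. Astrogliogenic neural precursor cells (aNPC) were derived from ESCs of C57/BL-6 mice and kept in N2 medium with EGF and FGF2. Early astrocytes (eA) and late astrocytes (lA) had spent 1 day and 5 days in DMEM with 1% FBS and LIF. No knockdown was applied to these cells. Each list came from 2 biological replicates that the authors merged before peaks were called. One list per mark and stage therefore leaves no error between cultures, no test could be made, and all values below are descriptions of these lists. ESCs have no peak list here, so the marks that these genes carry in the stem cell state were not measured, and RNA levels were not analysed here.

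In ESCs, the transcription factors Pou5f1 (Oct4) and Nanog hold the network together, Klf2, Klf4, Esrrb and Tbx3 sustain self-renewal alongside them, and Zfp42 (Rex1) and Dppa3 (Stella) are standard markers of the naive state. Tdgf1 (Cripto) is a co-receptor of Nodal, and Lin28a is an RNA-binding protein that blocks the maturation of let-7 miRNAs. Klf2, Klf4, Esrrb and Tbx3 are also used by differentiated tissues. H3K27ac marks active promoters and enhancers, and H3K4me1 marks enhancers and promoter flanks whether or not they are active, so that H3K4me1 without H3K27ac is often read as a primed or formerly active state.

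The 10 genes fell into distinct sets. Klf2 and Klf4 carried both marks at their promoters at every stage. Nanog and Tdgf1 carried no promoter peak of either mark, but each had H3K27ac at distal regions that covered more bases in eA and lA than in aNPC and that ranked among the widest peaks of lA. Esrrb went from 9 H3K27ac peaks at the precursor stage to 4 in eA and 3 in lA, while its H3K4me1 peaks numbered 18, 19 and 16. With a −log10 q of at least 5 these counts were 8, 2 and 2 for H3K27ac and 15, 13 and 9 for H3K4me1. Tbx3, Lin28a and Pou5f1 had H3K4me1 with no H3K27ac of their own, and Zfp42 had no peak in any list. Dppa3 had only narrow peaks, of which only the H3K27ac peak of lA had a −log10 q of at least 5.

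Sequences of some of these regions are given from the mm9 genome, on the strand of the gene. They are the acetylated regions beside Nanog and Tdgf1, the acetylated Klf4 promoter, and the sequences directly upstream of Pou5f1 and Zfp42, where no peak was called. The first 4 are windows of 201 bp centred on a summit and the last 2 are the 200 bp before the start site. Capitals mark matches to any of 5 short motifs, searched on both strands: ATGCNAAT (the octamer that POU factors bind), TCAAGGTCA (Esrrb), TTCCNGGAA (Stat3), GGGTGTGG (Klf factors) and TGANTCA (AP-1).
Nanog, upstream region, H3K27ac summit of eA, chr6:122652860-122653060, plus strand: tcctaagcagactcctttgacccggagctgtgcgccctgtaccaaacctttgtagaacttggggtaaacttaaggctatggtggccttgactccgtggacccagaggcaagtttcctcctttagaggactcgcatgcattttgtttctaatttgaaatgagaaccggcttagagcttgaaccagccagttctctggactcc
Nanog, downstream region, H3K27ac summit of lA, chr6:122665502-122665702, plus strand: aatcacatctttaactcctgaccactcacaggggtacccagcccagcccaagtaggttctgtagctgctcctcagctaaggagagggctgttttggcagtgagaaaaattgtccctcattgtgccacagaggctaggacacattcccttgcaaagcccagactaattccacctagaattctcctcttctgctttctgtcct
Tdgf1, downstream region, H3K27ac summit of eA, chr9:110837048-110837248, minus strand: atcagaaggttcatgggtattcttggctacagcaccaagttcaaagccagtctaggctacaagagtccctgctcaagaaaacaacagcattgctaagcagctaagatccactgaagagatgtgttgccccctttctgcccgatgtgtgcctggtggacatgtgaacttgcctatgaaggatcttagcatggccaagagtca
Klf4, promoter, H3K27ac summit of aNPC, chr4:55545737-55545937, minus strand: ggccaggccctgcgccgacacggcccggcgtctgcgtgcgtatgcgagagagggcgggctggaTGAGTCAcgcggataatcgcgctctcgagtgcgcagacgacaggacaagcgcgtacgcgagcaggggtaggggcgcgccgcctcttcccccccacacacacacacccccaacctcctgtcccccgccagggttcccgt
Pou5f1, before the start site, chr17:35642782-35642981, plus strand: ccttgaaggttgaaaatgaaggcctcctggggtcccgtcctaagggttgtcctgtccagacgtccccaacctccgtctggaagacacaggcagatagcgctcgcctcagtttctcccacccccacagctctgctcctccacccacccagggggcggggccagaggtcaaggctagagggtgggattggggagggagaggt
Zfp42, before the start site, chr8:44392364-44392563, minus strand: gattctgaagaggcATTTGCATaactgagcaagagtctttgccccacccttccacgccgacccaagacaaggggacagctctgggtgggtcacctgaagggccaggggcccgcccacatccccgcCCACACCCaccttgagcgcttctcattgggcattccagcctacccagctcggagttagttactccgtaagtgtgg
The Nanog and Tdgf1 regions and the Pou5f1 sequence hold none of the 5 motifs in these windows. Only exact matches to these words, with N as any base, were counted, so variant sites of the same factors would be missed. The Klf4 window holds TGAGTCA at position 64, counted from its 5′ end, and the Zfp42 sequence holds ATTTGCAT at position 15 and CCACACCC at position 126. In the 300 bp promoter (250 bp before to 50 bp after the outermost start site), the octamer was found at Zfp42 and Dppa3 and the Klf motif at Zfp42, where 2.92% and 3.63% of all coding genes held them. The AP-1 match of Klf4 lies outside its 300 bp promoter, and none of the 10 promoters held that motif, against 6.79% of all coding genes. The AP-1 motif lay within 100 bp of the summit at 4 of 18, 1 of 13 and 2 of 15 of the genes' own H3K27ac peaks in aNPC, eA and lA, and at 5.86%, 5.72% and 5.7% of all H3K27ac peaks in those lists. The other 4 motifs lay at 0 of these 18, 13 and 15 peaks, and each was found at 0.431% to 2.01% of all H3K27ac peaks. Of the genes' own H3K4me1 peaks, 7 of 34, 6 of 38 and 5 of 42 held the AP-1 motif, against 7.25%, 7.71% and 7.94% of the lists. The octamer lay at 1, 1 and 2 of them (lists 3.11%, 2.88% and 2.9%), the Klf motif at 1, 2 and 1 (lists 1.8%, 1.98% and 1.74%), and the Esrrb and Stat3 motifs at 0 (lists 0.466% to 0.91%). Many of these peaks are the same site at several stages, so the counts are not independent. The Klf4 window has 25 CpG dinucleotides and 70.6% GC, against 5 and 49.8% in the upstream Nanog region, 0 and 49.8% in the downstream Nanog region, 1 and 48.3% in the Tdgf1 region, 6 and 62.5% before Pou5f1 and 7 and 59.5% before Zfp42.

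Promoter H3K27ac was found at few of the 10 genes, and promoter H3K4me1 at about as many as the genome-wide share gives. A promoter peak was one that overlapped the region from 1 kb upstream to 100 bp downstream of any coding start site of the gene. In aNPC, eA and lA, respectively, H3K27ac met this at 3, 3 and 2 of the 10 genes, where 50.6%, 53.2% and 48.2% of all coding genes did. H3K4me1 met it at 5 of 10 genes at each stage, against 55.4%, 53.6% and 52.7% of all coding genes. The genes with promoter H3K27ac were Klf2, Klf4 and Esrrb in aNPC and eA, and Klf2 and Klf4 in lA. Promoter H3K4me1 was present at Klf2, Klf4, Esrrb and Tbx3 at all stages, at Lin28a in aNPC and eA, and at Dppa3 in lA. With 10 genes, 1 gene more or less moves such a share widely.

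**Figure D1:**
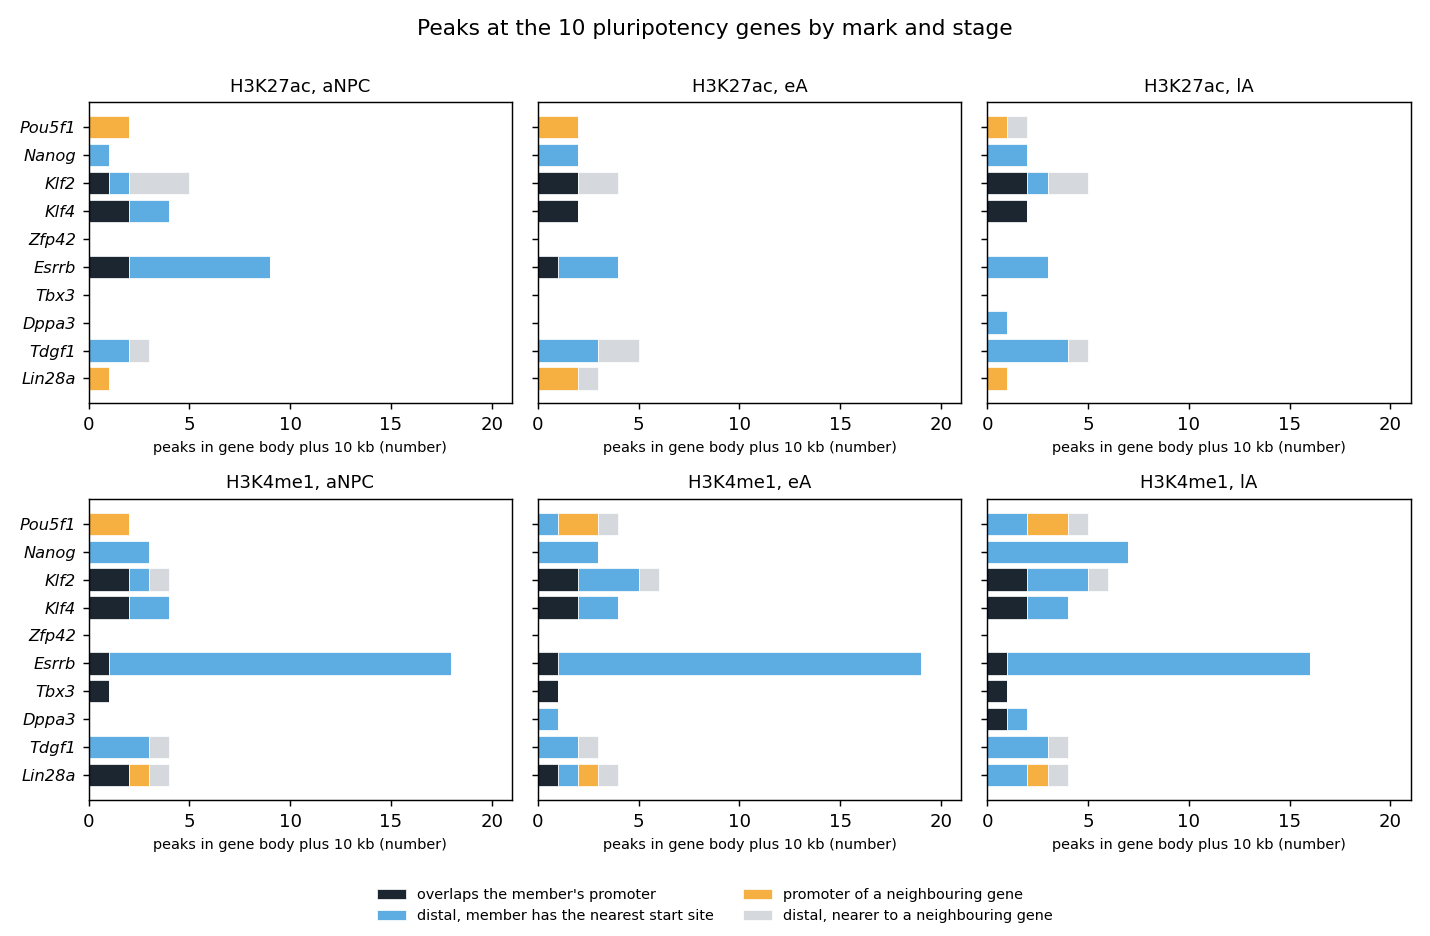
Number of peaks (x axis) in the gene body plus 10 kb of each of the 10 genes (y axis), for each mark and stage, coloured by where the peak lies. Only Klf2, Klf4 and, until eA, Esrrb have H3K27ac at the promoter, all H3K27ac peaks beside Pou5f1 and Lin28a lie at or nearer to neighbouring genes, and Zfp42 has none in any panel.

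Over the whole window, the counts were near those of other genes. At least 1 H3K27ac peak lay in the window of 7, 7 and 8 genes in aNPC, eA and lA, against 69.5%, 71.7% and 70.5% of coding genes, and at least 1 H3K4me1 peak in that of 8, 9 and 9 genes, against 80.0%, 81.0% and 81.4%. The windows held 25, 22 and 21 H3K27ac peaks and 40, 45 and 49 H3K4me1 peaks. Part of these belonged to neighbours: 7, 9 and 6 of the H3K27ac peaks lay at the promoter of another gene or nearer to its start site. A distal peak was called a gene's own if it overlapped no coding promoter and no other coding start site was nearer. Own distal H3K27ac was found at 5, 3 and 5 genes, against 37.2%, 42.8% and 42.5% of coding genes, and own distal H3K4me1 at 5, 8 and 8 genes, against 66.6%, 69.4% and 69.8%.

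The share of H3K27ac peaks that sat on H3K4me1 was near that of the whole lists. By stage, 21 of 25, 19 of 22 and 17 of 21 H3K27ac peaks overlapped H3K4me1 of the same stage, and the shares over the whole lists were 82.0%, 86.5% and 82.2%. H3K4me1 without H3K27ac made up 21 of 40, 27 of 45 and 29 of 49 peaks. The other 19, 18 and 20 did overlap H3K27ac, where the whole H3K4me1 lists gave 38.9%, 36% and 33.7%. After overlapping peaks of the 3 stages were joined, the windows held 34 H3K27ac sites, of which 11 (32.4%) were present at all stages, 9 (26.5%) in aNPC alone, 4 (11.8%) in lA alone and 2 (5.88%) in eA alone. Over the genome these shares were 26.0%, 21.5%, 19.3% and 11.1%. H3K4me1 was present at all stages at 30 of 56 sites (53.6%), against 39.1% over the genome. These pooled counts lean on Esrrb and on neighbours. Esrrb gave 4 of the 9 H3K27ac sites of aNPC alone and 12 of the 30 H3K4me1 sites of all stages, and 4 of the 11 H3K27ac sites of all stages lay at or nearer to another gene, in the windows of Pou5f1, Klf2, Tdgf1 and Lin28a.

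Nanog (chr6:122657507-122664651, plus strand) had no peak of either mark at its promoter, and both of its H3K27ac regions were intergenic. The upstream region carried an H3K27ac peak that was 475 bp wide in aNPC, 1981 bp at eA and 2479 bp in lA, with summits at -4533, -4547 and -3971 bp from the start site. Its coordinates in lA are chr6:122651955-122654433, and the peaks of the other stages lie inside them. The width of a peak and its −log10 q, the authors' measure of confidence at the summit, both depend on the depth of a library, which is unknown here, so each peak was ranked within its own list. By width, the upstream peak stood in the top 46.0% of aNPC peaks, the top 0.59% of eA peaks and the top 0.06% of lA peaks. By −log10 q (22.7, 105.8 and 62.1) it stood in the top 28.8%, 4.39% and 2.48%. The median H3K27ac peak measured 435, 389 and 429 bp at the 3 stages.

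The downstream Nanog region lacked an H3K27ac peak in the precursors, had one of 1029 bp in eA (top 12.8% by width), and one of 1840 bp in lA (top 0.75%). The summits lay at 8284 and 8095 bp, beyond the 3′ end of the gene. H3K4me1 covered both regions already in aNPC. Over the 3 stages it spanned 2005, 2191 and 2015 bp of the upstream region and 1210, 1742 and 1562 bp of the downstream region. No other coding gene lies in the window. The nearest coding start sites are those of Dppa3, 81.1 kb upstream, and Slc2a3, a glucose transporter gene, 94.2 kb downstream. The Slc2a3 promoter had an H3K27ac peak in eA and lA and none in aNPC. The window also holds the pseudogene Gm10224, and 72.2% of its 32-base words occur once in mm9, against 100% in the Nanog promoter.

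Tdgf1 (chr9:110842114-110848662, minus strand) showed a similar layout. It had no promoter peak of either mark, and its distal H3K27ac lay downstream of the gene in intergenic sequence, where peaks covered 1476, 2048 and 2749 bp over the 3 stages. The main peak measured 1115, 1337 and 1952 bp, with summits at 11579, 11514 and 11356 bp, and stood in the top 11.4%, 5.8% and 0.48% of its list by width and in the top 23.9%, 4.08% and 2.01% by −log10 q (29.7, 109.1 and 67.0). H3K4me1 was present at the same place at all stages, as a peak of 1574, 1863 and 1785 bp. Within the gene, narrow intronic H3K27ac peaks of 263 bp in eA and of 219 and 211 bp in lA were added, all within the lower-ranking 50% of their lists by −log10 q. Upstream, peaks of both marks at all stages lay in an intron of Lrrc2, whose start site is 5.4 kb from that of Tdgf1. The other flanking gene, Als2cl, starts 66.0 kb downstream and had promoter H3K27ac at all stages.

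Summed over the whole window, these 2 genes ranked near the upper end of the coding genes in lA. H3K27ac peaks covered 475 bp (1.75%), 3010 bp (11.1%) and 4319 bp (15.9%) of the Nanog window from aNPC to lA. The share of coding genes with a smaller covered part was 42.2%, 93.1% and 98.8%. For Tdgf1 the covered length was 1970, 3434 and 4470 bp, including the Lrrc2 intron, and 84.9%, 95.8% and 99.1% of coding genes had a smaller covered part. The median coding window was covered to 2.53%, 2.9% and 2.74%.

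**Figure D2:**
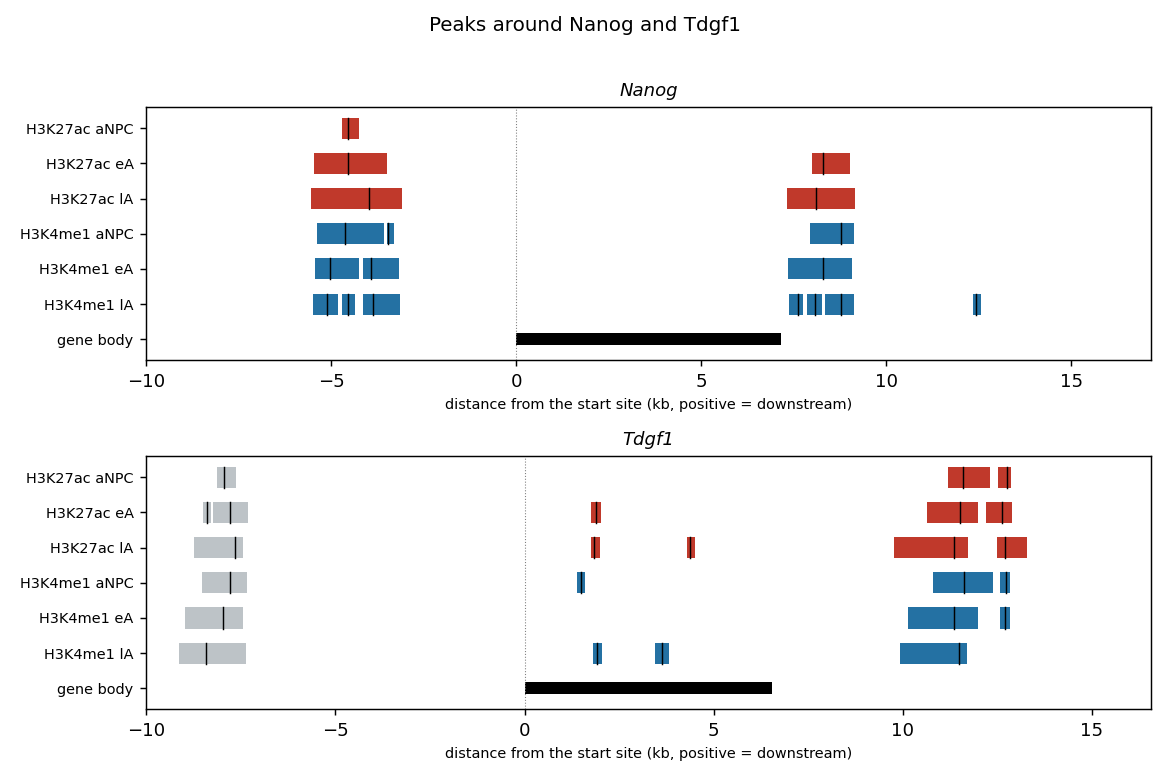
Peaks around Nanog and Tdgf1 by distance from the start site (x axis, kb), 1 row per mark and stage. Bars are peaks to scale, with the summit as a black line, grey bars are peaks nearer to another gene, and the black bar at the bottom is the gene body. The upstream Nanog H3K27ac peak is 475, 1981 and 2479 bp wide in aNPC, eA and lA, the downstream one is present in eA and lA alone, and the start sites of both genes are free of peaks.

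Klf2 and Klf4, zinc finger factors that pair a role in pluripotency with roles in many somatic cells, were the genes with both marks at the promoter at all stages. At Klf2 (chr8:74842932-74845555, plus strand) an H3K27ac peak just downstream of the start site measured 814, 799 and 551 bp by stage, with summits at 170, 241 and 193 bp in the first intron. It stood in the top 15.1%, 12.4% and 34.9% of its list by −log10 q. A smaller peak upstream was called in eA (244 bp, summit at -373 bp) and lA (275 bp, summit at -333 bp) but not in aNPC, although H3K4me1 was present there at all stages (302, 269 and 216 bp). H3K4me1 in the gene covered 1294, 1942 and 1576 bp. Further upstream, a region with summits at -7674, -7603 and -7670 bp carried H3K27ac of 408, 452 and 298 bp, with H3K4me1 at every stage, but its nearest coding start site is that of the predicted gene Gm10282, which had no promoter peak in any list.

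At Klf4 (chr4:55540013-55545347, minus strand) peaks flanked the start site on both sides. The upstream H3K27ac peak measured 761, 445 and 732 bp in aNPC, eA and lA, with summits at -490, -475 and -466 bp, and stood in the top 9.83%, 16.7% and 17.8% of its list by −log10 q. The downstream peak measured 738, 807 and 196 bp, and in lA it was among the narrowest peaks of the list, with 91.0% of the list at or above its −log10 q of 3.74. It is counted as a promoter peak in lA through an internal start site of Klf4. Both sides carried H3K4me1 at all stages, of 686, 523 and 239 bp upstream and 665, 892 and 785 bp downstream. Beyond the 3′ end, H3K27ac peaks of 323 and 194 bp were called in aNPC alone, at 6099 and 6636 bp, whereas H3K4me1 stayed over the nearer position in all 3 lists (313, 727 and 405 bp). The covered share of the window was 7.96%, 4.94% and 3.66%, above that of 86.8%, 67.8% and 58.7% of coding genes.

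**Figure D3:**
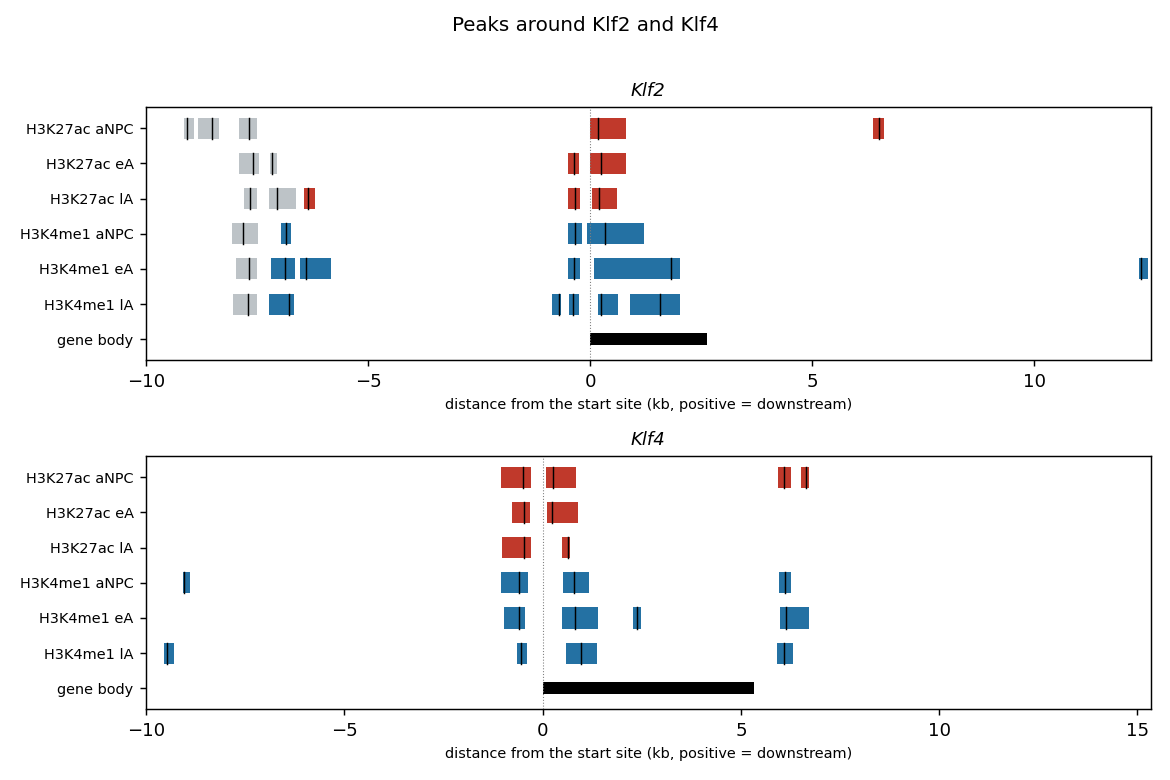
Peaks around Klf2 and Klf4 by distance from the start site (x axis, kb), 1 row per mark and stage. Bars are peaks to scale, with the summit as a black line, grey bars are peaks nearer to another gene, and the black bar is the gene body. H3K27ac lies next to both start sites in all lists, and the H3K27ac peaks downstream of Klf4 are in aNPC alone.

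Esrrb (chr12:87702067-87862578, plus strand), an orphan nuclear receptor that acts with Nanog in ESCs, had the most peaks, in the longest window (180.5 kb). Its 9, 4 and 3 H3K27ac peaks, of which 8, 2 and 2 had a −log10 q of at least 5, covered 4326, 1219 and 1411 bp. The covered share was 2.4%, 0.675% and 0.782% of the window, larger than that of 48.6%, 31.8% and 32.7% of coding genes. No peak lay at the outermost start site. The promoter peaks lay at 2 internal start sites, 87762594 and 87762833, where H3K27ac peaks of 300 and 465 bp were called in aNPC, 1 peak of 453 bp in eA and none in lA. H3K4me1 spanned the same place in all lists, with 1479, 1542 and 1730 bp and ranks in the top 3.25%, 6.45% and 6.99% by −log10 q. In lA this promoter therefore had H3K4me1 without H3K27ac.

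Deep in an intron of Esrrb lay a pair of neighbouring H3K27ac peaks present at all stages. By −log10 q, 1 of the pair was the highest H3K27ac peak of the gene in aNPC and lA, whereas in eA the promoter peak (top 48.8% of its list) stood above both (top 62.5% and 91.6%). The second of these measured 526, 340 and 456 bp, with summits at 138240, 138161 and 138207 bp from the outermost start site, and stood in the top 15.2%, 62.5% and 33.1% of its list by −log10 q. Its partner measured 816, 175 and 702 bp, and in eA its −log10 q was under 5. A single H3K4me1 region of 1241, 1248 and 1448 bp covered both, and ranked in the top 2.28%, 1.69% and 10.1%. Of the 9 H3K27ac sites of the gene, 4 were in aNPC alone, 2 in aNPC and eA, 1 in aNPC and lA and 2 at all stages, and none was first called in eA or lA. Of its H3K4me1 sites, 12 were present at all stages. All 9, 4 and 3 H3K27ac peaks overlapped H3K4me1 of their stage.

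**Figure D4:**
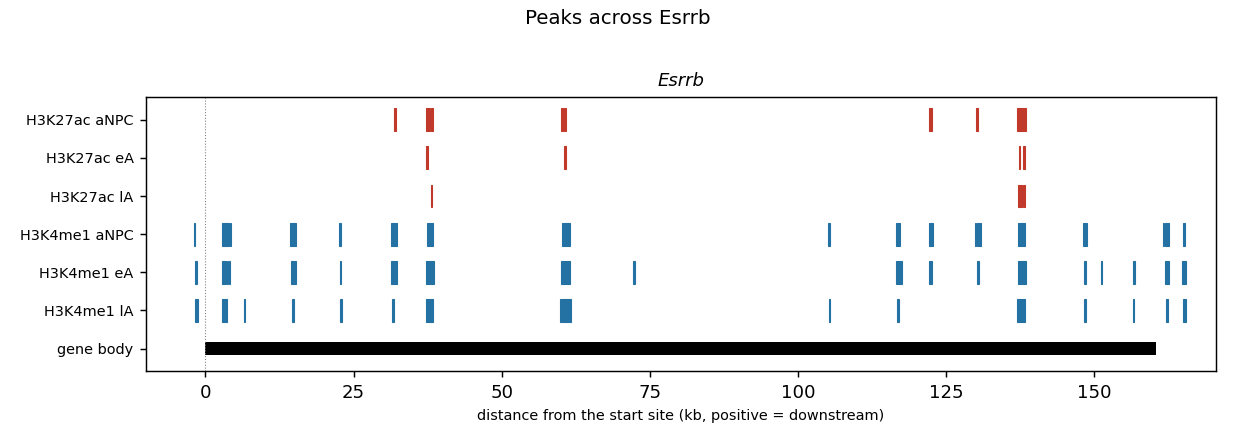
Peaks across Esrrb by distance from its outermost start site (x axis, kb), 1 row per mark and stage, with peaks as bars, outlined so that narrow ones can be seen and neighbouring ones may touch, and the gene body in black. From top to bottom, the H3K27ac rows hold 9, 4 and 3 peaks and the H3K4me1 rows 18, 19 and 16.

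The remaining genes had little H3K27ac of their own. Pou5f1 (chr17:35642982-35647721, plus strand) had no promoter peak of either mark, and the H3K27ac in its window lay in or beside Tcf19 and Cchcr1, mostly at their shared promoter, where the most confident peak measured 700, 876 and 1127 bp. Its only H3K4me1 by nearest start site was an upstream peak of 510 bp in eA (summit at -3638 bp, −log10 q of 8.18) and 876 bp in lA (-3615 bp, 10.6), plus a peak of 585 bp in lA at 6878 bp, inside an exon of Tcf19. None of these overlapped H3K27ac, and aNPC had no such peak. Zfp42 (chr8:44380422-44392363, minus strand), a zinc finger protein lost early when ESCs differentiate, had 0 peaks in all 6 lists. In its window 74.5% of 32-base words are unique in mm9, and 89.8% in its promoter, and the part of repeated sequence in this result was not tested. For both genes the absence of a peak says that the merged reads did not pass the calling threshold, not that the mark was absent.

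Tbx3 (chr5:120120678-120134733, plus strand), a T-box factor, carried H3K4me1 over its start site at all stages and no H3K27ac anywhere in its window. The H3K4me1 peak measured 666, 1075 and 1178 bp, with summits at -210, -209 and -371 bp, and ranked in the top 53.1%, 14.3% and 20.5% by −log10 q. Lin28a (chr4:133559245-133574756, minus strand) showed H3K4me1 on both sides of its start site at all stages, of 823, 1727 and 1022 bp downstream and 462, 220 and 333 bp upstream. In lA these peaks lay just outside the promoter as defined, and a promoter of 1 kb on either side would count Lin28a in lA as well. All H3K27ac in the Lin28a window lay at Dhdds or nearer to it, and the H3K4me1 peak at the 3′ end of Lin28a was nearer to the Dhdds start site. Dppa3 (chr6:122576428-122580290, plus strand), which protects the maternal genome from demethylation, had only narrow peaks: H3K27ac of 204 bp in lA (summit at -1544 bp), promoter H3K4me1 of 218 bp in lA (-933 bp, −log10 q of 4.08), and downstream H3K4me1 of 209 bp in eA and 357 bp in lA. When a −log10 q of at least 5 was required, Dppa3 had no H3K4me1 peak left at any stage, at the promoter or downstream. Its H3K27ac peak in lA, with a −log10 q of 5.73, remained.

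CpG content was set beside the promoter peaks, for these genes and for all coding genes. The ratio of observed to expected CpG in the 300 bp around the outermost start site was 0.974 at Klf4, 0.899 at Klf2 and 0.782 at Tbx3, and these 3 fell in the CpG-rich class (ratio of at least 0.6 and GC of at least 55%). The other 7 lay between 0.192 at Nanog and 0.545 at Tdgf1. Of all coding genes, 8510 (38.1%) were in the CpG-rich class, and H3K27ac peaks lay at the promoter around their outermost start site in 81.8%, 84.9% and 74.8% of them in aNPC, eA and lA, against 25.5%, 27.5% and 25.0% of the CpG-poor class. For H3K4me1 these shares were 81.3%, 75.5% and 73.0% against 32.7%, 32.3% and 32.4%. Tbx3 was the CpG-rich gene without H3K27ac. Esrrb was CpG-poor at its outermost start site, where no list had a peak. Its promoter peaks lay at internal start sites, which have ratios of 0.318 and 1.051. The 4 genes without any promoter peak, Pou5f1, Nanog, Zfp42 and Tdgf1, share this state with 7632 coding genes (34.1%), and Klf2 and Klf4 share theirs, marked in all 6 lists, with 7580 (33.9%).

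**Figure D5:**
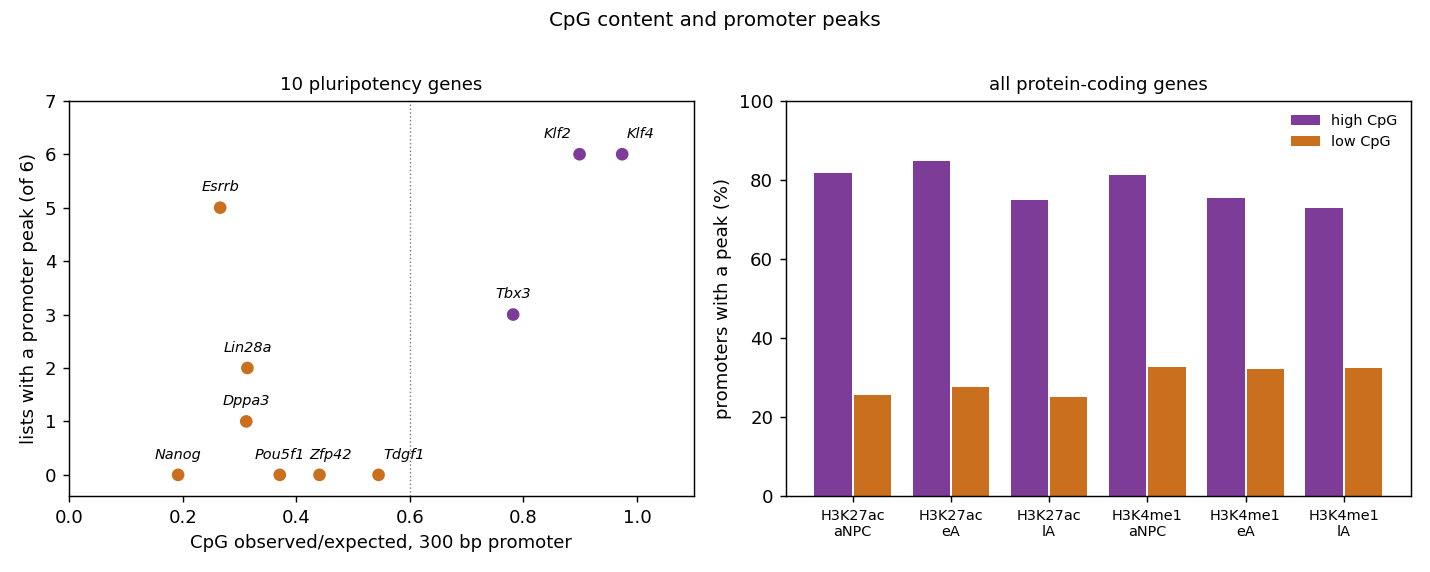
Left, CpG observed/expected of the 300 bp promoter (x axis) against the number of lists with a promoter peak (y axis, of 6) for the 10 genes, with CpG-rich promoters in purple, CpG-poor in orange and the ratio of 0.6 dotted. Right, percentage of all CpG-rich and CpG-poor promoters with a peak in each list. Klf2 and Klf4 stand at 6 lists with ratios of 0.899 and 0.974, and the 4 genes at 0 lists are all CpG-poor. Esrrb stands at 5 lists through peaks at internal start sites, whereas its ratio of 0.266 is that of the outermost start site.

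Markers of the lineage were read in the same lists. Of 8 neural progenitor genes, 7 had promoter H3K27ac at every stage, Sox2 among them. Of 8 astrocyte genes, 5, 5 and 6 had it in aNPC, eA and lA, of 3 neuronal genes 1 at each stage, of 6 genes of mesoderm, endoderm and trophoblast 1, 1 and 0, and of 3 germ cell genes 1, 1 and 0. Of 19 other pluripotency genes that could be matched, promoter H3K27ac was present at 2, 3 and 3: Sox2, which neural progenitors also use, and Klf5 at all stages, and Lefty1, a Nodal inhibitor, in eA and lA. Promoter H3K4me1 was present at 7, 6 and 6 of the 19. The shares of all coding genes, given above, were 50.6%, 53.2% and 48.2% for promoter H3K27ac and 55.4%, 53.6% and 52.7% for promoter H3K4me1.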

How the data were processed

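The lists come from 12 ChIP-seq samples of 51 in the series, covering both marks in aNPC, eA and lA. The authors aligned reads uniquely to mm9 with Bowtie, merged the 2 biological replicates of each stage and mark with SAMtools 0.1.19, and called peaks with MACS2 at default settings without input. The deposited lists give each peak's position, its summit offset and the −log10 of the q-value that the authors' caller assigned, which was used only within a list. The depth of the libraries is unknown. RNA-seq (8 libraries unassigned because their labels conflict) and knockdown samples were not analysed here.

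Mitochondrial peaks were left out, which left 79413, 83433 and 92700 peaks for H3K27ac and 154238, 185478 and 208333 for H3K4me1 in aNPC, eA and lA. Genes came from GENCODE M1, with 51710 coding start sites. Overlap meant at least 1 bp. As a check of the overlap code alone, simulated peaks were placed on the start sites of 200 genes, and promoter calls recovered all 200. The 10 genes and all marker lists were chosen with earlier results of these data known. All 10 are named, and the peaks described singly are mainly the promoter peaks and, per gene and mark, the distal peak with the highest −log10 q. Motifs and CpG content were read from the NCBIM37 (mm9) sequence. Alternatives varied the margin, promoter, q-value minimum and list size. Python 3.11.15, NumPy 2.4.6, pandas 2.3.3, numba 0.67.0 and matplotlib 3.10.9 were used.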

Additional observations from a re-analysis of the deposited data

How the results depend on the processing

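Of 78 values recomputed under alternatives, 67 stayed within 1.5 times the reported value. The 11 others were all counts of peaks in the windows, 10 of them under another margin, which adds or removes sequence by construction. With no margin the windows held 11, 7 and 7 H3K27ac peaks and 20, 22 and 21 H3K4me1 peaks in aNPC, eA and lA. With 5 kb they held 14 H3K27ac peaks in eA. With 20 kb they held 34 and 35 H3K27ac peaks in eA and lA, and 61 H3K4me1 peaks in aNPC. With each list of a mark cut to the same number of top peaks, the windows held 32 H3K4me1 peaks in lA. The numbers of genes with a promoter peak or an own distal peak stayed within 1.5 times under every alternative run. No paired analysis was possible because the replicates were merged before peaks were called, and for the same reason no replicate could be left out. Without depth, a peak that was not called cannot be told apart from one below the threshold of a shallower library.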
